A study of Mus musculus with 20 samples.

Results

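Neurons that received the same mean number of action potentials in long, widely spaced bursts or in short, frequent bursts were compared after 2 hr of stimulation, using 8 of the 20 samples of the series. The 90/5 group (4 samples, titled C1 to C4) received 90 action potentials in a burst every 5 min, and the 18/1 group (4 samples, titled A1 to A4) 18 action potentials in a burst every 1 min. The members of both groups were taken from the sample titles. All samples were cultured dorsal root ganglion (DRG) neurons from NIH Swiss mouse embryos of embryonic day 13.5, grown for weeks in chambers whose barrier the axons cross, treated with fluorodeoxyuridine against dividing non-neuronal cells, and kept overnight in serum-free medium before stimulation through platinum electrodes. The labels call the cells DRG neurons, while the growth protocol speaks of spinal cords. Both colours of an Agilent array held samples of 1 condition: the 90/5 samples lay on arrays C1C3 and C2C4, and the 18/1 samples on arrays A1A2 and A3A4. Which colour held which numbered 90/5 sample is not settled by the labels, so each of them is called by its array and dye. The methods call the 4 samples of a condition biological replicas and describe 5 pooled cultures per condition, without saying how the samples divide these cultures. P-values measure the spread between samples within conditions, pooled over all conditions of the series.

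Dorsal root ganglion neurons carry touch, temperature and pain signals from the body to the spinal cord. Action potentials open calcium channels, and the calcium that enters acts through calmodulin, kinases and the phosphatase calcineurin on transcription factors such as CREB and SRF. These switch on immediate early genes within minutes to hours, among them the transcription factor genes Fos, Egr1, Nr4a1 and Npas4, followed by effectors such as the neurotrophin gene Bdnf. Calcium rises and falls with each burst, so the duration of a burst and the pause between bursts are candidate carriers of information at the same mean rate. The comparison asks whether mRNA levels differ with timing alone.

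The arrays of the 2 patterns stood apart in ways that the groups share. The 18/1 2 hr arrays lay on slide 1 with the unstimulated samples, and the 90/5 2 hr arrays on slide 2 with the 18/1 5 hr samples. Slide, version of the scanner software and pattern cannot be told apart in this comparison. The 2 arrays of 90/5 2 hr also differed from each other. Scanner marks for non-uniform spots numbered 45 and 139 in the 2 colours of C1C3 and 3138 and 6476 in those of C2C4, against 6 to 21 in the 18/1 2 hr samples. In the 18/1 5 hr samples on slide 2 they numbered 5319 to 14642. Over the genes tested, Pearson correlations with the 18/1 2 hr samples were 0.956 to 0.981 for C1C3 and 0.924 to 0.943 for C2C4, while C2C4 correlated at 0.962 to 0.984 with the 18/1 5 hr samples of its own slide and at 0.956 to 0.962 with C1C3. The correlations of C1C3 with the 18/1 5 hr samples on its slide were lower, at 0.907 to 0.952, than those with the 18/1 2 hr samples on the other slide. Median signals were 2.27 to 2.94 times the background in the 18/1 samples, 3.64 to 3.83 times in C1C3 and 4.74 to 6.71 times in C2C4. Of 25 sensory neuron markers on the array, 20 were well above background in all 8 samples. The summed signal of all 25 ranged from 452809 to 581126 at 18/1 and from 481002 to 602958 at 90/5. Sums here and below take in every marker of a list on the array, also those not above background. Of 12 fibroblast markers 10 were above background (summed signal 92923 to 148791 at 18/1 and 78614 to 165347 at 90/5), as were 11 of 20 Schwann and satellite cell markers (154776 to 182458 and 138094 to 168889) and 7 of 12 macrophage markers (21686 to 33767 and 12174 to 28776). Of 14 spinal cord neuron markers 2 were above background in all 8 samples, with defining markers such as Chat, Mnx1 and Gad1 not among them. The summed signal of all 14 was 24758 to 35464 at 18/1 and lower, at 18365 to 23557, at 90/5. Of 8 endothelial markers 2 were above background, and the sum of all 8 was likewise lower at 90/5 (2038 to 2602 against 2739 to 3651). How much of these sums is background signal was not tested. The part of these markers in the differences was not tested. In RNA from whole cultures, fewer cells of a type and less RNA per cell cannot be told apart.

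Values below are normalized log2 signals, on which 1 unit is a 2-fold difference, and differences are 90/5 minus 18/1. Of 10355 genes tested in a linear model (limma), 514 (4.96%) were called different between the patterns at an adjusted p under 0.05. Of these, 275 (2.66% of the genes tested) were higher and 239 (2.31%) were lower with the 90/5 pattern. At an unadjusted p under 0.05 there were 2034, with 945 higher and 1089 lower. Without array A1A2 96 and without array A3A4 80 genes were called, all among the 514. The higher genes made up 53.5% of the calls, against 79.2% of 413 calls with samples centred on their medians only and 35.2% of 250 calls with saturated probes left out. They made up 92.7% of the 96 calls without A1A2, which left 7 lower genes, and 90.2% of 163 calls on the means of arrays, which left 16. The genes called higher had a median difference of 1.55, with 1.32 on array C1C3 and 1.81 on C2C4. The genes called lower had a median of -1.31, with -0.75 on C1C3 and -1.84 on C2C4. Over all genes tested the medians were -0.02 on C1C3 and -0.10 on C2C4.

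The 2 arrays of 90/5 2 hr gave differences of unequal size. The sign was the same on both arrays for 68.3% of all genes tested, and for the 514 called, where the call on the mean of both arrays selects for it, in every case. Of the 514, 478 had the larger difference on C2C4, against 75.6% of all genes. A difference of at least 1 in the same direction on each array was found for 285 of the genes tested (2.75%), of which 234 were called. These were 179 of the genes called higher (65.1%) and 55 of the genes called lower (23%). The standard deviation of the differences over all genes was 0.449 on C1C3 and 0.849 on C2C4. With array C1C3 alone against the 4 samples of 18/1, 124 genes (1.2%) were called, 102 higher and 22 lower, and with C2C4 alone 2547 (24.6%), 1085 higher and 1462 lower. Both contrasts use the same 4 samples of 18/1. Their spread is pooled over all conditions of the series, since 1 array of 90/5 gives none between arrays. With only the 2 conditions fitted, the counts were 1421 with C1C3 alone and 6327 with C2C4 alone.

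**Figure D1:**
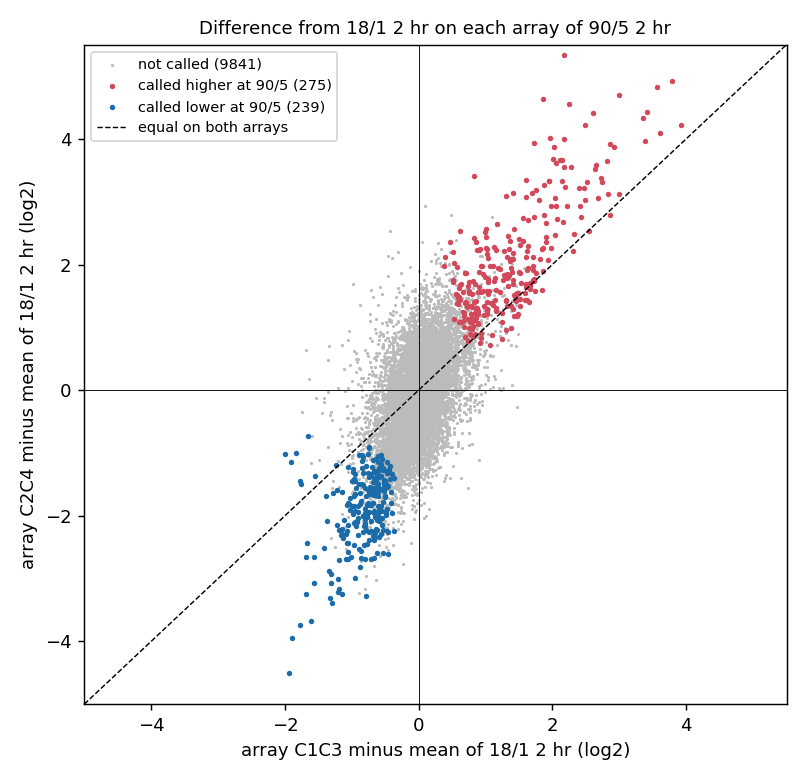
Difference from the mean of the 4 samples of 18/1 2 hr on each array of 90/5 2 hr, in log2 units, for the 10355 genes tested (1 point per gene). The genes called higher (red) and lower (blue) lie in the quadrants where both arrays have the same sign, and 478 of the 514 lie farther from 0 on the C2C4 axis than on the C1C3 axis.

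The 4 samples of 90/5 did not overlap the 4 of 18/1 for 486 of the genes called, against 1915 of all genes tested (18.5%). The other conditions place these genes. Of the genes called higher, 95.6% had an 18/1 5 hr level nearer to 90/5 2 hr than to 18/1 2 hr, as had 99.6% of the genes called lower and 74.7% of all genes. The 18/1 5 hr samples lay on the slide of the 90/5 2 hr samples. At 90/5 5 hr, on slide 3, the level was nearer to 18/1 2 hr for 98.9% of the genes called higher, 96.2% of those called lower and 72.8% of all genes. Against 18/1 5 hr within slide 2, 1339 genes (12.9%) were called at 90/5 2 hr, and within slide 1, 2 genes (0.0193%), Nr4a1 and Rgs2, were called at 18/1 2 hr against unstimulated neurons, with 92 at an unadjusted p under 0.05. With array quality weights the latter count was 1600, and without array C1C3 the former was 57. These contrasts share samples with the comparison of the patterns. What part the slide has in the calls was not tested, since no slide holds both patterns at 2 hr.

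Of 18 activity-regulated genes, 4 were called higher than in unstimulated neurons at 2 hr with the 18/1 pattern and 11 with the 90/5 pattern, and 1 of the 18, which were followed whatever their values, was called different between the patterns. At 18/1 the 4 were Nr4a1, Rgs2, Fos and Npas4, and at 90/5 these and 7 others were called. For 8 of the 18 these values come from the fit with the spot filter in all 20 samples, in which 722 of 10355 genes (6.97%) were called at 90/5 against unstimulated neurons, and for the other 10 from a fit that asks for the spot filter in a single condition, in which 948 of 18744 (5.06%) were called at 90/5 and 4 (0.0213%) at 18/1. Unstimulated neurons shared a slide with 18/1 2 hr and not with 90/5 2 hr, so these 2 counts do not compare the patterns. A gene can enter the second fit through the stimulated samples alone. Among those called, Fos, Npas4, Egr4, Fosb and Gem came from that fit. Their calls against unstimulated neurons are therefore a description and no independent evidence of a rise. Several of the 18 had been chosen by the study on these samples. The promoters of 4 of the genes are shown first, since each holds a match to the NF-kappaB site and to TGACG, the core of the cAMP response element that CREB binds, within the bases printed. Nr4a1 holds both as well, with an NF-kappaB match that runs across the start site. They are the 250 bases before the transcription start from RefSeq (GRCm38.p6), written 5′ to 3′ on the strand of the gene. Capital runs of 5 bases mark the core TGACG or its complement CGTCA, and capital runs of 10 bases mark the NF-kappaB site on either strand.
Npas4, chr19:4989972-4990221, minus strand: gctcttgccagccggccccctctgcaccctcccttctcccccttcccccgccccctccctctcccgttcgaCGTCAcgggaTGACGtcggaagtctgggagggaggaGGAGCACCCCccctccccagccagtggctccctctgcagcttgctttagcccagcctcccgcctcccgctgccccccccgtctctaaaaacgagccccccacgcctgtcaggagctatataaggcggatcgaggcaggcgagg
Fos, chr12:85473640-85473889, plus strand: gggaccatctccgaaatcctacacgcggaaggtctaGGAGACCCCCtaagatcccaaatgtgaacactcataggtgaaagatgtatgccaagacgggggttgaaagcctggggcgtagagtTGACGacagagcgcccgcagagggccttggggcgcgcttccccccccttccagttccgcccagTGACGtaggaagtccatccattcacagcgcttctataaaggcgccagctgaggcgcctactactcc
Fosb, chr7:19310046-19310295, minus strand: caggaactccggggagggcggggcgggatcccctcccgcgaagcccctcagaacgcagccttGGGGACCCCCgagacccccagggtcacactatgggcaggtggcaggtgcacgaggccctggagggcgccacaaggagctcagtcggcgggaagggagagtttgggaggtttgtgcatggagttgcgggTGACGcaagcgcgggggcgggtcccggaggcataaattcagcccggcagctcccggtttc
Egr4, chr6:85513590-85513839, minus strand: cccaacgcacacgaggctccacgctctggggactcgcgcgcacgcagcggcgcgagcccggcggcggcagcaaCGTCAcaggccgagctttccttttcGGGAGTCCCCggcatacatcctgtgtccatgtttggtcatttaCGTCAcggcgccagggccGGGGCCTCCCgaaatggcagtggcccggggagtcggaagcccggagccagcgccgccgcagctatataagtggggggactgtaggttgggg
Npas4, Fos and Egr4 each hold 2 such cores and Fosb holds 1, and Egr4 holds 2 NF-kappaB matches where the other three hold 1 each. A match is a run of letters and not a shown binding site.

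Egr4, a zinc finger transcription factor gene of the early growth response family, was the gene called. Its level was 9.14, 8.61, 9.16 and 8.30 in the 18/1 samples A1 to A4, 10.02 and 9.85 on array C1C3 (Cy3 and Cy5) and 10.87 and 10.26 on array C2C4. All 90/5 samples were above all 18/1 samples. The difference was 1.45 (standard error 0.34, adjusted p = 0.022), with 1.14 on C1C3 and 1.76 on C2C4. The value comes from the single-condition fit, in which 740 of 18744 genes (3.95%) were called. A gene can enter that fit through a condition where it is high. The call of Egr4 between the patterns is therefore also a description and no independent evidence. The call was lost with C1C3 alone (adjusted p = 0.19), without array A1A2 (0.25), A3A4 (0.23) or sample A4 (0.055), and with no spot filter (0.081). Over unstimulated neurons, whose mean was 7.33, the difference was 1.47 at 18/1 (adjusted p = 0.95) and 2.92 at 90/5 (adjusted p = 6.7e-05). Egr4 did not pass the spot filter in all 20 samples, and its unstimulated values were low, at 7.03 to 7.80. These 2 differences may therefore be lower bounds. The means of Egr4 at 18/1 5 hr and 90/5 5 hr were 10.45 and 10.46.

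Fos and Npas4 had differences of about 1 unit that did not pass the test in the same fit. Fos, which encodes a subunit of the AP-1 transcription factor, was at 10.34, 10.97, 11 and 10.08 in A1 to A4, at 10.77 and 11.76 on C1C3 and at 12.09 and 12.06 on C2C4. The samples of the patterns overlapped on C1C3 only. The difference was 1.07 (95% confidence interval 0.15 to 2.00, adjusted p = 0.20). With C1C3 alone it was 0.67 (adjusted p = 0.88) and with C2C4 alone 1.48 (adjusted p = 0.018). Npas4, a transcription factor that responds to calcium in neurons, was at 11.42, 12.77, 12.24 and 11.70 in A1 to A4, at 12.67 and 13.60 on C1C3 and at 13.09 and 12.76 on C2C4. Its difference was 1.00 (interval -0.28 to 2.28, adjusted p = 0.41), and the 2 ranges overlapped. Both genes rose over unstimulated neurons with each pattern, Fos by 3.37 at 18/1 and 4.44 at 90/5 and Npas4 by 4.63 and 5.63. Neither gene passed the spot filter in all 20 samples, and their unstimulated means were low (7.23 and 7.40). The sizes of these rises are therefore not well measured and may be lower bounds.

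Nr4a1 and Rgs2 rose with both patterns and were nearly level between them. Nr4a1, an orphan nuclear receptor gene, was at 12.43, 13.30, 13.21 and 12.51 in A1 to A4, at 12.75 and 13.59 on C1C3 and at 13.11 and 12.89 on C2C4. The patterns overlapped, and the difference was 0.22 (interval -0.55 to 1.00). Against a mean of 8.32 in unstimulated neurons it rose by 4.54 at 18/1 (adjusted p = 4.3e-07) and by 4.76 at 90/5 (adjusted p = 1.7e-07). Rgs2, which limits signalling through G proteins, was at 13.59, 13.95, 13.37 and 13.07 in A1 to A4, at 13.75 and 13.68 on C1C3 and at 13.50 and 13.75 on C2C4. All 90/5 samples of Rgs2 lay within the range of the 18/1 samples, and the difference was 0.18 (interval -0.53 to 0.88).

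Among the other members of this set, the intervals show how much the data leave undecided. Egr1, a transcription factor of the Egr4 family, had a difference of -0.01 (interval -1.22 to 1.21), and Fosb, a relative of Fos, 0.39 (-0.28 to 1.07). For Bdnf, brain-derived neurotrophic factor, the difference was 0.26 (-0.36 to 0.88), with -0.18 on C1C3 and 0.70 on C2C4. Gadd45b, a gene of the growth arrest and DNA damage family, differed by 0.57 (0.06 to 1.08, adjusted p = 0.19), and its 4 samples of 90/5 all lay above those of 18/1. Socs3, an inhibitor of cytokine signalling, also had ranges that did not overlap, with a difference of 0.68 (-0.03 to 1.39). The remaining members were Gem, Trpm6, Dusp1, Dusp4, Nfkbie, Pim1, Bcor and Tef, with differences from -0.45 for Dusp1 to 0.46 for Bcor, none of them called. Dusp4, a MAP kinase phosphatase, was called lower with C2C4 alone (-0.71, adjusted p = 0.028) and not with C1C3 alone (-0.16). Dusp4 was well above background in 1 of the 4 samples of 90/5, and Pim1 in 2, so these differences are not well measured.

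**Figure D2:**
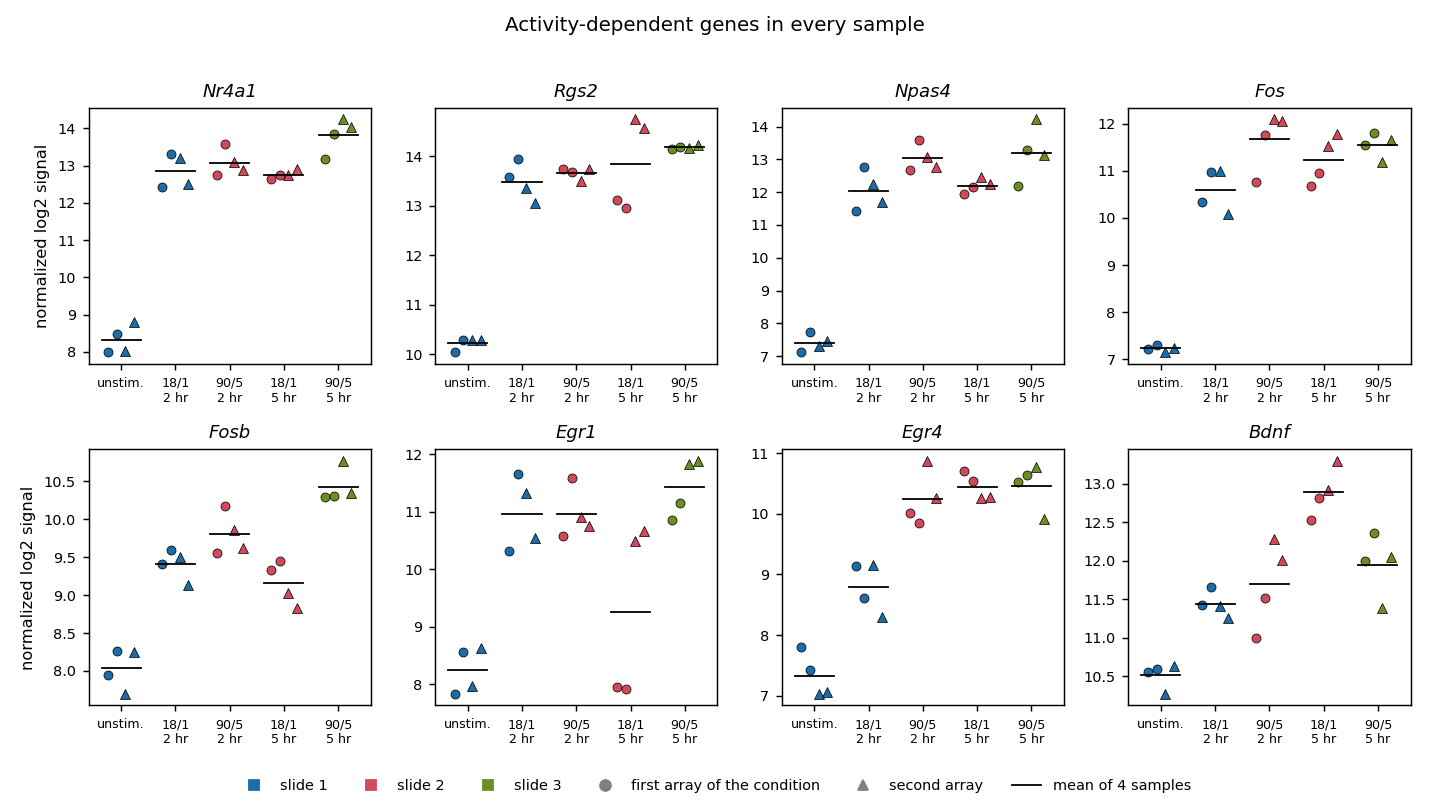
Normalized log2 signal of 8 activity-regulated genes in each of the 20 samples, by condition, with circles for the first and triangles for the second array of a condition, colours for the slide and bars for the mean of 4 samples. The 90/5 2 hr and 18/1 2 hr samples of Nr4a1, Rgs2 and Egr1 overlap well above the unstimulated samples, and those of Egr4 do not overlap.

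In the wider lists of activity genes calls were few, as they were over all genes tested (4.96%). Of 31 immediate early transcription factor genes on the array, 16 were tested, with 0 called and a median difference of 0.24 (0.25 on C1C3 and 0.32 on C2C4), beside -0.07 for all genes tested. At an unadjusted p under 0.05, 4 were higher and 0 lower, against 945 and 1089 of all 10355 genes: Maff and Mafk, small Maf factors, at 0.91 and 0.72, Fosl1, another AP-1 subunit, at 0.71, and Srf, serum response factor, at 0.60. When the filter was asked of a single condition, Nfil3, a bZIP repressor, was called as well, with a difference of 1.51 (adjusted p = 0.047). Of 33 activity-induced effectors 23 were tested and 1, Plk3, was called, with a median of 0.26 over the list. Plk3, a stress-responsive polo-like kinase, was at 12.16, 11.72, 12.26 and 11.66 in A1 to A4, at 13.20 and 13.18 on C1C3 and at 12.89 and 12.62 on C2C4. Its difference of 1.02 (adjusted p = 0.044) was larger on C1C3 (1.24) than on C2C4 (0.81), was called with neither array alone (adjusted p = 0.086 and 0.075) and lost its call in 20 of 30 alternatives, and its 18/1 5 hr mean was 12.62. Among MAP kinase feedback inhibitors, 8 of 20 were tested with 0 called, of which 2 were higher at an unadjusted p under 0.05, the threshold that 945 of all 10355 genes passed upwards. In the single-condition fit Spred2, an inhibitor of the Ras to MAP kinase pathway, was called lower at -1.65 (adjusted p = 0.043), and the related Spry4 had a difference of 1.66 (adjusted p = 0.056).

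Among genes called with a RefSeq name and no overlap between the patterns, the 12 largest rises were in genes outside the lists of activity genes. Vax2, a homeobox gene of the ventral eye, was at 9.05, 9.79, 9.38 and 9.72 in A1 to A4, at 12.83 and 13.71 on C1C3 and at 14.12 and 14.68 on C2C4. The groups were far apart on both arrays, and the difference of 4.35 (standard error 0.36, adjusted p = 2.9e-07) was 3.79 on C1C3 and 4.92 on C2C4. The Vax2 probe lies at chr6:83688239-83688298 (mm9). Its mean was 9.43 in unstimulated neurons, 14.07 at 18/1 5 hr and 9.64 at 90/5 5 hr. Elane, which encodes neutrophil elastase, was at 10.63, 11.08, 10.15 and 10.66 in A1 to A4, at 13.61 and 14.42 on C1C3 and at 14.46 and 14.75 on C2C4. The difference for Elane was 3.68 (standard error 0.31, adjusted p = 2.9e-07), and its 18/1 5 hr mean was 14.64. Sall4, a zinc finger factor of stem cells, differed by 3.85 (3.36 on C1C3 and 4.33 on C2C4).

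The other genes of this group came from unrelated processes. Nkain1, whose product binds the sodium pump, differed by 4.19, Wdfy1, an endosomal adaptor, by 4.07 and 2310008H09Rik, now named Knop1 and encoding a nucleolar protein, by 3.93. Other probes gave -0.38, 0.54 and 0.81 for 2310008H09Rik and 0.30 for Nkain1. For Wdfy1 they went the other way, at -0.85 and -0.54. Golt1a, a Golgi transport gene, differed by 3.85 and Dcaf12l2, of a family of ubiquitin ligase adaptors, by 3.40. Ppp1r3b, which directs a phosphatase to glycogen, differed by 3.40, Arhgap26, a GTPase activating protein, by 3.39, Hs2st1, which sulphates heparan sulphate, by 3.35 and Suv39h2, a histone methyltransferase, by 3.23. All 12 genes were called with C1C3 alone, and each had an 18/1 5 hr mean nearer to its 90/5 2 hr mean than to its 18/1 2 hr mean. Of the 275 genes called higher, 121 had a probe that the scanner marked as saturated in at least 1 sample of 90/5 2 hr. The 12 genes with the largest rises were among them, apart from Golt1a and Hs2st1. Of the 239 genes called lower 0 had one, and these were selected for lower signals at 90/5. The same share over all genes tested is not given here. Leaving out probes saturated in any sample of the series left 8476 of the 10355 genes. Sizes at the top of the scale are bounded by the scanner.

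Among genes with a RefSeq name and no overlap, the 12 largest falls all had larger differences on C2C4. Probes without such a name lay between them, the lowest at -2.92 (A_55_P2045086). Prss53, a serine protease gene, was at 14.31, 14.22, 13.58 and 14.47 in A1 to A4, at 12.56 and 11.84 on C1C3 and at 9.68 and 9.59 on C2C4. Its difference was -3.22 (standard error 0.70, adjusted p = 0.0086), with -1.94 on C1C3, where it was not called alone (adjusted p = 0.34), and -4.51 on C2C4. Pkd1l2, a polycystin family gene, was at 11.15, 11.15, 10.66 and 10.95 in A1 to A4, at 9.53 and 9.22 on C1C3 and at 7.58 and 7.02 on C2C4. The C2C4 samples were lowest, the C1C3 samples lay between them and the 18/1 samples, and the difference was -2.64 (standard error 0.41, adjusted p = 0.00045). At 90/5, Pkd1l2 was well above background in 3 of the 4 samples. The Pkd1l2 mean was 6.90 at 18/1 5 hr and 11.04 at 90/5 5 hr. Pde1a, a calmodulin-dependent phosphodiesterase that links calcium to cyclic nucleotides, differed by -2.21 (-1.20 on C1C3 and -3.21 on C2C4). Pdzd11, a PDZ protein that binds calcium pumps of the plasma membrane, differed by -2.19 (-1.31 and -3.07).

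Further genes in this direction were Hipk4, a protein kinase, at -2.31, Epb4.1l3, a membrane skeleton protein, at -2.10, and Zc4h2, a zinc finger gene of neuron development, at -2.05. Hipk4 was well above background in 3 of the 4 samples of 90/5. Parg, which removes poly(ADP-ribose), was at -1.81, C330006K01Rik, now Ap5z1 of an adaptor complex, at -1.76 (with other probes at 0.06 and 1.00), Frat2, which binds the kinase GSK-3, at -1.75, Prh1, a proline-rich protein gene, at -1.75 (with a second probe at -0.74), and 1700007K09Rik, now Fam24b, at -1.74. In 3 of the 12 genes, Pkd1l2, Pdzd11 and 1700007K09Rik, the fall was also called with C1C3 alone (adjusted p = 0.004, 0.046 and 0.046). Frat2, at -0.80 on C1C3, lost its call in 19 of 30 alternatives, and C330006K01Rik in 12 of 30. Just inside the threshold stood Impdh1 at 1.06, Slc46a3 at -0.81 and the unnamed probe NAP114286-1 at -1.23, and just outside Wbp1 at -1.04, Ddx21 at 1.29 and Nop10 at -1.10.

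**Figure D3:**
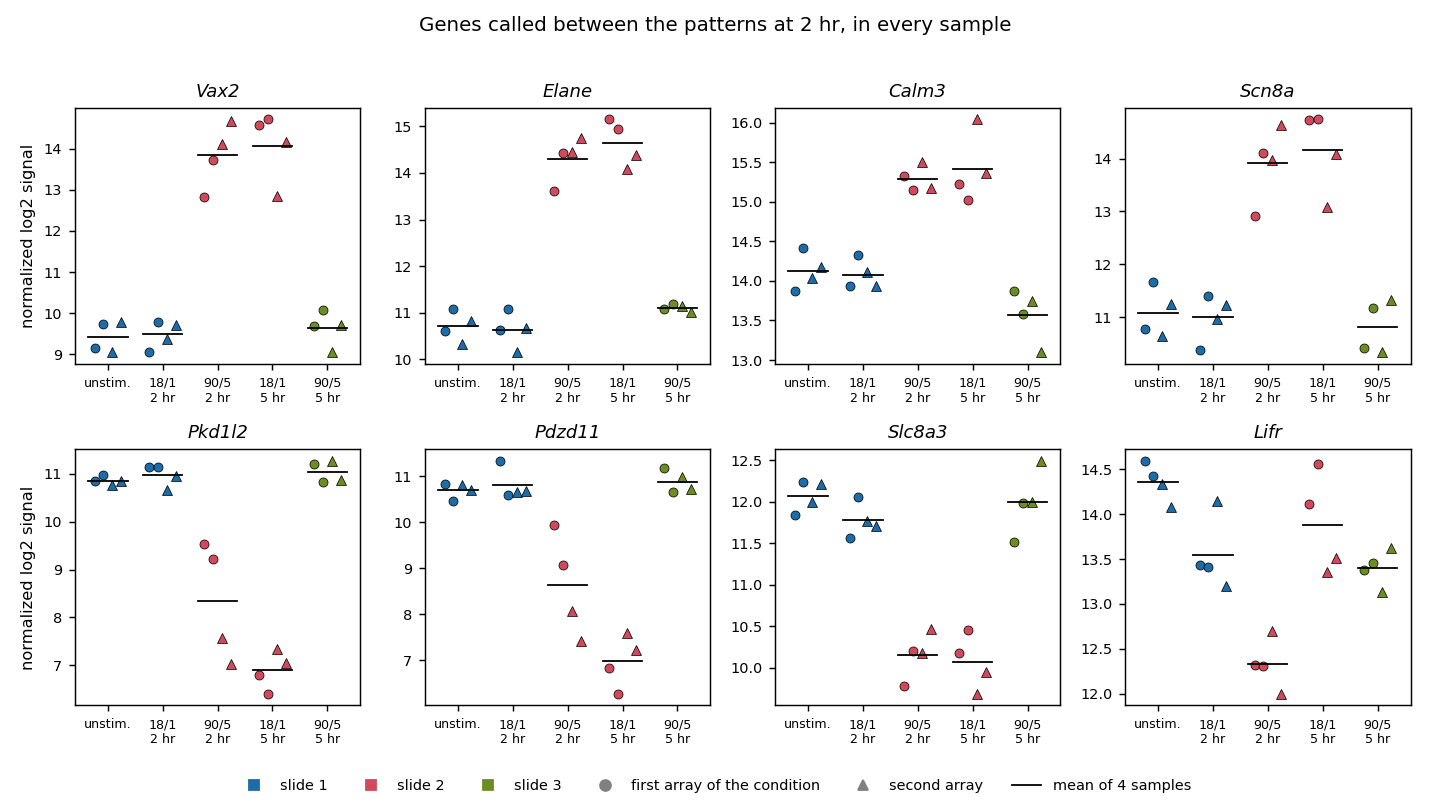
Normalized log2 signal of 8 genes called between the patterns at 2 hr in each of the 20 samples, with circles and triangles for the 2 arrays of a condition, colours for the slide and bars for the mean of 4 samples. For Vax2, Elane, Calm3, Scn8a and Slc8a3 the 18/1 5 hr samples of the same slide lie with the 90/5 2 hr samples, for Pkd1l2 and Pdzd11 their mean lies below, and for Lifr they lie above them.

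Other probes for the same genes often did not show these differences. The 49 genes called higher that had another probe past the spot filter had 59 such probes, of which 34 (57.6%) had the same sign and 2 a difference of at least 1 in that direction. Their median was 0.09, against 1.52 for the probes that gave the calls. For 27 genes called lower with 27 other probes, 20 (74.1%) had the same sign and 2 were past 1, with medians of -0.39 and -1.31. Among genes that were not called, 53.3% of other probes had the same sign. Some further probes passed the filter in the 8 samples only, as did those of Wdfy1 and Dcaf12l2 given here. For Wdfy1 they gave -0.85 and -0.54 against 4.07, for Nkain1 0.30 against 4.19, for Sdhc -1.25 against 1.39 and for Ehmt1 0.07 against 3.12. For Dcaf12l2 a second probe gave 4.31, with the call at 3.40, and for Rps18 a second probe gave -1.07, with the call at -1.48. Probes of a gene can detect different transcripts, and which probe measures the main transcript was not tested.

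Genes of calcium signalling, through which bursts reach transcription, were called in 3 cases out of 36 tested (8.33%, against 4.96% of all genes tested), all higher with the 90/5 pattern. Calm3, a calmodulin gene, was at 13.93, 14.32, 14.11 and 13.94 in A1 to A4, at 15.32 and 15.15 on C1C3 and at 15.50 and 15.18 on C2C4. The patterns did not overlap, and the difference was 1.21 (adjusted p = 0.025), with 1.16 on C1C3 and 1.26 on C2C4. Its probe was saturated in 2 of the 4 samples of 90/5, so the sizes are bounded by the scanner. Its unstimulated mean was 14.12 and its 18/1 5 hr mean 15.41, and a second Calm3 probe gave 0.41. Ppp3cb, a catalytic subunit of calcineurin, differed by 1.17 (0.76 and 1.58), and Camkk1, a kinase that activates calmodulin kinases, by 1.04 (0.73 and 1.34). With C1C3 alone none of the 3 was called (adjusted p = 0.14, 0.44 and 0.31), and they lost their calls in 10 of 30, 13 of 29 and 9 of 30 alternatives. The median over the list was 0.04. Slc8a3, a sodium and calcium exchanger, stood in the other direction at 11.57, 12.06, 11.76 and 11.71 in A1 to A4, at 9.79 and 10.20 on C1C3 and at 10.18 and 10.47 on C2C4. All 90/5 samples were at least 1 unit below the lowest 18/1 sample, and its difference of -1.61 (adjusted p = 0.00021) was called with C1C3 alone as well (adjusted p = 0.00088). The mean of Slc8a3 at 18/1 5 hr was 10.07.

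Ion channel genes had 0 to 2 members called per list, or 0 to 10% of short lists, against 4.96% of all genes tested. Of 10 sodium channel genes tested, Scn8a, the sodium channel of nodes and initial segments, was called at 2.91 (2.52 on C1C3 and 3.31 on C2C4, adjusted p = 3.2e-05). Its levels were 10.37 to 11.40 at 18/1 and 12.92 to 14.64 at 90/5, while the list had a median of -0.03. The Scn8a probe was saturated in 1 of the 4 samples of 90/5. Of 34 potassium and HCN channel genes, Kcna4, an A-type channel, was called higher at 1.47 (1.42 and 1.52) and Kcnd1, another A-type channel, lower at -1.08 (-0.83 and -1.32), with a second probe at 0.07. Trpm1, a cation channel of retina and pigment cells, was called at 2.17 among 14 tested receptor potential, acid-sensing and P2X channels, of which the median was 0.23. Among 10 tested calcium channel genes 0 were called, and at an unadjusted p under 0.05 also 0, with a median of -0.14. Of 16 GABA and glutamate receptor genes, Gabrr2 was called lower at -1.54, with a median of -0.33 over the list.

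Of 20 JAK-STAT and SOCS genes of cytokine signalling tested, 1 was called (5%, near the 4.96% of all genes). This was Lifr, the receptor of leukaemia inhibitory factor, which was at 13.43, 13.41, 14.14 and 13.20 in A1 to A4, at 12.32 and 12.31 on C1C3 and at 12.70 and 12 on C2C4. The fall of -1.21 (adjusted p = 0.048) was equal on both arrays within the spread of their colours. It was not called with C1C3 alone (adjusted p = 0.16), lost its call in 16 of 29 alternatives, and a second probe gave -0.61. Of 32 axon guidance genes tested 3 were called (9.38%, against 4.96% of all genes), all higher and past 1 on both arrays: Sema4c, a semaphorin, at 2.07, and the Eph receptor genes Epha5 at 1.51 and Ephb3 at 1.49. Other Epha5 probes gave -0.75 and 0.42. The Sema4c probe was saturated in 3 of the 4 samples of 90/5. Ephb3 was not called with C1C3 alone (adjusted p = 0.14) and lost its call in 15 of 29 alternatives. The guidance list had a median of 0.24, with 7 higher and 1 lower of 32 at an unadjusted p under 0.05, against 945 and 1089 of all 10355 genes. Of 32 axonal cytoskeleton genes Dpysl5, a collapsin response mediator, was called at 1.87, with a list median of -0.05.

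Motor genes had Dynll2, a dynein light chain, at 1.27 and Kif19a, a kinesin, at -1.06, among 38 tested (5.26%, near the 4.96% of all genes), and a second Dynll2 probe gave 0.16. Dynll2 was not called with C1C3 alone (adjusted p = 0.41) and lost its call in 16 of 30 alternatives. Its probe was saturated in 2 of the 4 samples of 90/5. Kif19a was well above background in 2 of the 4 samples of 90/5. In the synaptic list of 66, with 3.03% called, Syt10, a synaptotagmin, was called at 2.12, with 0.83 on C1C3 and 3.40 on C2C4, and Snap23, a membrane fusion protein, at -1.42, with -1.83 on C1C3 and -1 on C2C4. Snap23 was called with C1C3 alone (adjusted p = 0.00079) and Syt10 was not (0.81).

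Chromatin genes were called in 3 of 63 cases (4.76%, near the 4.96% of all genes), all higher: Suv39h2 at 3.23, Ehmt1, a further histone methyltransferase, at 3.12 and Hdac7, a histone deacetylase, at 2.15. The Suv39h2 probe was saturated in 3 of the 4 samples of 90/5, and another Ehmt1 probe gave 0.07. The list had a median of 0.10, with 0.17 on C1C3 and 0.09 on C2C4. Histone genes had a median of -0.61 over 27 tested, the lowest of the function lists with at least 8 members tested, with -0.39 on C1C3 and -0.74 on C2C4. Of these, 1 was called, the variant gene H2afy at 1.55, whose other probes gave 0.12 and -0.38. At an unadjusted p under 0.05, 15 of the 27 were lower and 2 higher, against 1089 and 945 of all 10355 genes. Nearest to the threshold were Hist1h3d at -1.30 (adjusted p = 0.054), H3f3b at 1.23 (0.057) and Hist1h4k at -0.94 (0.064). Histone probes had a median of 51.7% G and C bases, against 41.7% for all genes, and their median at 18/1 5 hr minus 18/1 2 hr was -0.79. The sequences of histone gene copies are alike, so a probe may detect several of them.

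Genes of general cell maintenance showed isolated calls, to be read against the 4.96% of all genes tested. Of 75 cytosolic ribosomal protein genes 1 was called, Rps18 at -1.48 (1.33%), and of 77 respiratory chain genes 1 (1.3%), Sdhc at 1.39, whose second probe went the other way. Proteasome genes had Psme3 at 1.58 and Psmg3 at -1.43 among 36, and spliceosome genes had Snrpc at 0.89, Snrpa at -0.87 and Hnrnpk at -1.19 among 57. Other Hnrnpk probes gave -0.10 and -0.31. Cry2, a repressor of the circadian clock, was called at 2.27 (1.41 on C1C3 and 3.13 on C2C4) among 9 clock genes tested, and its second probe gave 0.19. Dnajb6, a cochaperone, was called at 1.57 among 43 heat shock genes, with other probes at 1.11, -0.32 and -0.38. Solute carriers had 3 higher and 3 lower among 147, including Slc45a3 at 2.83, Slc45a4 at 1.32 and Slc16a13 at -1.39. Second probes gave 1.01 for Slc45a3 and -0.52 for Slc16a13, and Slc16a13 was well above background in 2 of the 4 samples of 90/5. Zinc finger genes named Zfp had Zfp791 at 2.87 and Zfp414 at -1.12 among 176. The sensory neuron markers had 16 members tested, 0 called and 1 lower at an unadjusted p under 0.05, and 17 sensory neuropeptide genes likewise 0 and 1. Of 7 olfactory receptor genes that passed the filter, 3 were called lower, Olfr629 at -1.30, Olfr549 at -1.11 and Olfr700 at -0.84, or 42.9% against 2.31% of all genes called lower. At 90/5, Olfr549 was well above background in 2 of the 4 samples and Olfr700 in 3, so the sizes of these differences are not well measured. These genes encode odorant receptors, and the 7 had a low median level at 18/1 (8.46) and a median of 45% G and C in their probes, against 11.20 and 41.7% for all genes.

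The study's own list of molecules from pathways of 90/5 2 hr was chosen on these samples and is no independent evidence. Of its 31 members tested 3 were called, E2f4 higher and Rhof and Ppp2r5b lower (-1.29, adjusted p = 0.047), or 9.68% against 4.96% of all genes tested, and the median was -0.14 (-0.15 on C1C3 and -0.11 on C2C4). Nearest to the threshold among those that did not pass were Stat3 (-1.23, adjusted p = 0.059), Tnfsf12 (-0.89, 0.060), Stat5a (0.77, 0.069) and Bbc3 (-1.02, 0.075), and at an unadjusted p under 0.05 the list had 7 higher and 8 lower. Of the 15 tested from the 18/1 2 hr pathways 0 were called, with 1 higher and 2 lower at an unadjusted p under 0.05.

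**Figure D4:**
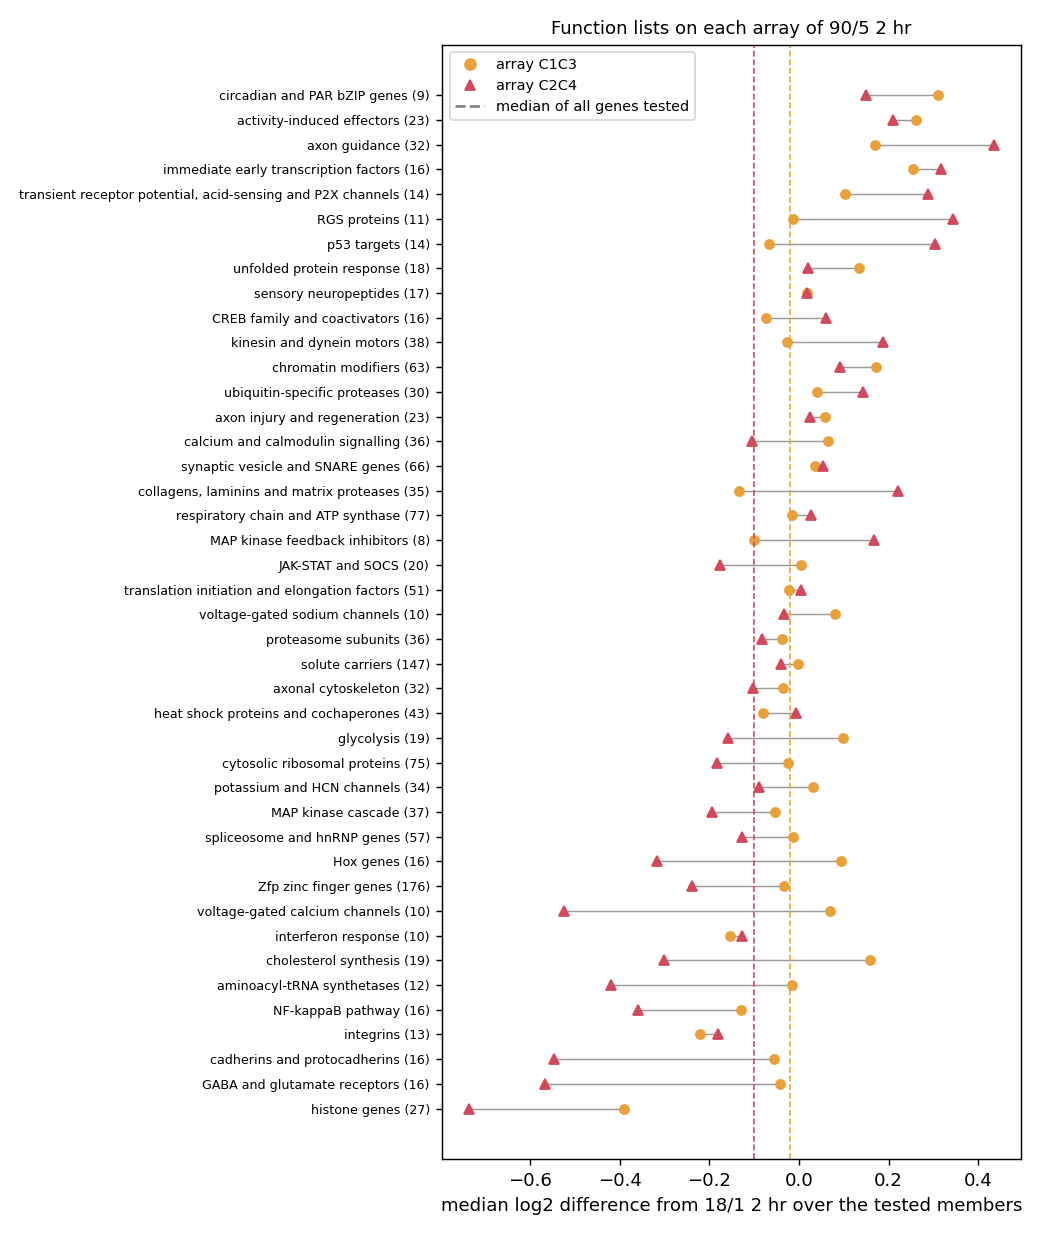
Median log2 difference from 18/1 2 hr over the tested members of the function lists reported here that had at least 8 members tested (number in parentheses), on array C1C3 (circles) and array C2C4 (triangles), with dashed lines at the median of all genes on each array. The list medians lie between -0.39 and 0.31 on C1C3 and between -0.74 and 0.44 on C2C4.

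Some genes were called on 1 array of 90/5 2 hr and not on the other. With C1C3 alone, 9 genes were called that were not called with C2C4 alone; they are named here after their values were seen, as Abhd4, Acbd6, D3Ertd751e, Idua, March1, Nuak2, Pign, Slc17a5 and Tacr2. Tacr2, a tachykinin receptor gene, was at 12.25, 12.72, 12.54 and 12.34 in A1 to A4, at 10.46 and 10.96 on C1C3 and at 12 and 12.23 on C2C4. The C1C3 difference was -1.75 and the C2C4 difference -0.34. D3Ertd751e had the opposite sign on the 2 arrays, -1.69 and 0.63, as had Pign, a gene of lipid anchor synthesis, at -1.35 and 0.47. Nuak2, a kinase related to AMPK, was higher by 0.95 on C1C3 and at -0.18 on C2C4. In the other direction, the genes with the largest differences that were called with C2C4 alone and not with C1C3 alone were Prss53, Tmem198 (1.70 on C1C3 and 3.14 on C2C4, with a second probe at 0.51 over both), Hipk4, Pde1a and Syt10.

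Of the 514 genes called, 7 were also called in the same direction against 18/1 5 hr, the condition on the slide of the 90/5 2 hr samples, and 86 in the opposite direction. Both contrasts use the 90/5 2 hr samples. The 7, named after their values were seen, were higher in 6 cases (Adc, BC128469, E2f4, Slc25a47, Srrd and Trabd) and lower in 1 (Lifr). E2f4, a transcription factor that represses cell cycle genes in resting cells, was at 8.35, 8.50, 8.55 and 8.58 in A1 to A4, at 9.57 and 9.95 on C1C3 and at 10.13 and 10.37 on C2C4. The 18/1 5 hr samples of E2f4 were at 9.06 to 9.25, between the patterns at 2 hr. Its difference from 18/1 2 hr was 1.51 (adjusted p = 0.00013) and from 18/1 5 hr 0.84 (adjusted p = 0.016). Srrd, a gene related to plant clock regulators, was at 8.92 to 9.32 at 18/1 2 hr, at 9.71 to 9.93 at 90/5 2 hr and at 8.66 to 9.37 at 18/1 5 hr, with differences of 0.76 and 0.84. Slc25a47, a mitochondrial carrier gene, had differences of 0.86 and 0.84, and Adc, now Azin2 and an activator of polyamine synthesis, 0.83 and 0.73. A second Adc probe gave 0.72. For Lifr the differences were -1.21 and -1.55, with 18/1 5 hr samples from 13.35 to 14.56 against 12 to 12.70 at 90/5 2 hr. The comparison with 18/1 5 hr differs in time as well as in pattern.

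Differences between the patterns moved with the base composition of the probes. The median share of G and C bases was 38.3% for genes called higher, 46.7% for genes called lower and 41.7% for all genes. Among 2622 genes with probes of at most 35% G and C, 4.46% were called higher and 0.343% lower. Among 1953 genes above 45% and up to 55%, 1.38% were called higher and 5.58% lower, and among 72 genes above 55%, 5.56% and 16.7%. In the lowest class the median difference was 0.06 on C1C3 and 0.34 on C2C4, and in the class above 45% to 55% it was -0.07 and -0.52. With each sample's trend on G and C content removed, 373 genes were called, of which 328 were among the 514. Of the 68 named genes called, 51 were still called with this trend removed, and 0 reversed their sign. What part probe composition has in the remaining calls was not tested.

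**Figure D5:**
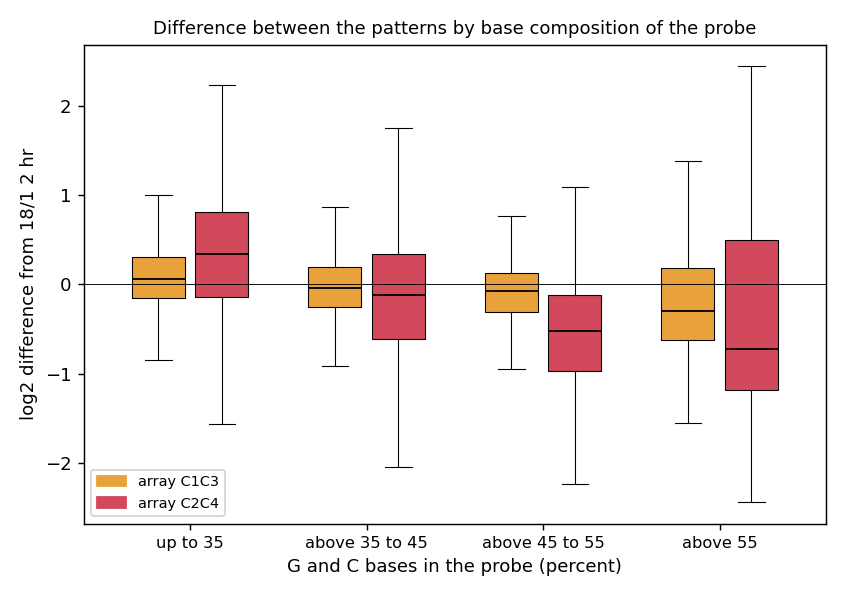
Log2 difference from 18/1 2 hr by the share of G and C bases in the probe, for array C1C3 (orange) and array C2C4 (red), with boxes from the lower to the upper quartile, a line at the median and whiskers to the farthest gene within 1.5 times the box length. The medians fall from 0.06 to -0.30 on C1C3 and from 0.34 to -0.73 on C2C4 between the lowest and the highest class.

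Promoter sequences of the genes called were searched in the window from 250 bases before to 50 bases after the start, on both strands, for 178 of the genes called higher, 116 of those called lower and 7049 of all genes tested that RefSeq (GRCm38.p6) holds. The cAMP response element TGACGTCA was found in 5.06% of promoters of genes called higher (9 promoters), 2.59% of those called lower (3 promoters), 3.57% of all tested and 1.88% of 27025 promoters in all. Its core TGACG, which the full element contains, was added after the promoters were seen and was found in 30.3%, 24.1%, 32.9% and 21.0%. NF-kappaB sites were found in 10.1%, 8.62%, 9.92% and 8.18%. Shares for the AP-1 site TGAGTCA were 2.81%, 4.31%, 3.33% and 5.17%, and for the E-box CACGTG 9.55%, 11.2%, 10.6% and 7.24%. The D-box TTATGTAA was found in 0.562%, 1.72%, 0.539% and 0.955%, and the CArG box, the core of the serum response element, in 1.12%, 1.72%, 1.23% and 1.57%. Of the 18 activity genes 15 had a promoter in the table, of which 6 (40%) held an NF-kappaB site, 7 (46.7%) the core TGACG and 1, Dusp1, the full cAMP response element. No test was made of these shares.

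Probes well above background with 1 pattern and in 0 samples of the other numbered 26 for 90/5 and 1256 for 18/1. The scanner set this mark for 22124 to 24498 spots in the 90/5 samples and for 26157 to 30120 in the 18/1 samples. In the 18/1 5 hr samples, on the slide of 90/5 2 hr, it was set for 27122 to 30833. The counts of probes are therefore a description, and the cause of their inequality was not tested. Of the 26, 23 had a signal at least 2-fold above their bound. This was set by the dimmest measured probes or by the probe's own signal in the other pattern. The highest was Gm10447 at 19.3-fold, where the bound was its own mean signal at 18/1. Of the 1256, 2 reached a bound of 2-fold: Lrit3, a membrane protein with leucine-rich repeats, at least 2.51-fold higher with the 18/1 pattern, and Rasgrf2, a calcium-dependent activator of Ras, at least 2.46-fold higher.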

How the data were processed

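Total RNA of 20 samples was measured on 10 two-colour Agilent arrays. The authors deposited each spot's mean intensity and local background intensity per colour, not normalized, extracted per the file headers with Feature Extraction 10.7.1.1 (slide 1) and 10.7.3.1 (slides 2 and 3), on a linear scale. Gene names follow the later of 2 annotations (mm9), which differs from the earlier in 8333 of 44397 spots, and 86.2% of the names tested match a RefSeq symbol or synonym.

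In R 4.3.3 with limma 3.58.1, background was corrected with normexp (offset 50), colours were aligned by loess within arrays, and arrays by Aquantile. A spot was kept if its signal was at least 2 times its background and it was not marked non-uniform in all 20 samples, and the probe with the highest mean signal stood for each gene. The fit took in all 20 samples and had a mean per condition, a colour term and the array as random block (correlation 0.529). Benjamini-Hochberg adjustment covered all genes tested, with a threshold of 0.05. Confidence intervals are at 95%. Promoters came from RefSeq (GRCm38.p6). Figures were drawn in Python 3.11.15 with matplotlib 3.10.9. With 2 arrays per condition, precision is limited by their number. The fit was tested on simulated data.

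Named genes were the 12 with the largest differences each way among called genes that match a RefSeq symbol or synonym and whose samples did not overlap, up to 4 called members of each list, the 18 activity genes, and the 5 with the largest differences among genes called with 1 array of 90/5 2 hr alone. The comparison, lists and rules were chosen with earlier results of these data known. The columns of scanner-corrected signals were not used, and the replicate numbers could not be matched to colours on 4 arrays. Some genes and 2 gene lists are not reported here.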

Additional observations from a re-analysis of the deposited data

Results flagged for a closer look

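In 172 groups of 4 samples, 1 for each named gene and pattern, 4 held a sample whose distance from the nearest of the others took up most of the range (a share above Dixon's 95% critical value). This is 2.33% of the groups, where chance gives about 1 in 20. All 4 were 18/1 2 hr samples. Pdzd11 was at 11.33 in A1 with the other samples at 10.59 to 10.67, and its fall at 90/5 was called. Kif19a was at 8.78 in A2 with the others at 8.51 to 8.53. Cry2 was at 13.33 in A3 with the others at 12.81 to 12.86. Slc45a4 was at 8.65 in A1 with the others at 9.32 to 9.36.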

How the results depend on the processing

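Of 30 alternatives, those that left the count of 514 within 1.5 times are not listed. It was 250 with saturated probes left out, 163 on the means of arrays, 1247 with array quality weights, 1823 with no array block, 2034 at an unadjusted p, 1775 by the methods' t-test with a fold change of at least 1.4, and 1 by that t-test after Benjamini-Hochberg adjustment. Leaving out an array or a sample gave 80 (without A3A4) to 2547 (without C1C3), with 96 without A1A2, 124 without C2C4, 341 without sample A2 and 289 without A4. The count called on both arrays, 234, was 365 with the filter in a single condition, 112 with saturated probes left out, 1 by the adjusted t-test and 80 to 336 with an array or sample left out. The 124 genes of C1C3 alone became 232 with the filter in a single condition, 276 with no filter, 20 without saturated probes, 75 with no colour term, 373 with no array block, 1011 with quality weights, 1421 with only the 2 conditions fitted, and 36 to 108 with an array or sample left out. The 2547 of C2C4 alone became 4380 with the filter in a single condition, 5478 with no filter, 4082 with no block, 4678 with weights, 6327 with only the 2 conditions, and 1200 to 2373 with an array or sample left out. The causes were not tested.

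Of the 68 named genes called, 31 were also called on the means of arrays, 31 of the 47 still measured without saturated probes, 31 with no spot filter, 0 by the adjusted t-test, 25 without array A1A2, 26 without A3A4, 30 without C2C4 and 67 without C1C3. With no spot filter 400 genes were called, of which 144 were among the 514. Another probe came to stand for Wdfy1 with the filter in the 8 samples, in a single condition or with no filter, at -0.85, and without saturated probes for 2310008H09Rik at -0.38 and for Sdhc at -1.25. The full cAMP response element was in 4.08% of promoters of all genes called, in 3.31% to 10.2% with an array or sample left out (the highest without A1A2), in 2.33% without saturated probes, in 6.74% on the means of arrays, and in 0 for the adjusted t-test. Spots measured in 1 pattern only numbered 1418, and 1748 (without A3A4) to 5282 (without C1C3) with an array left out. Against 18/1 5 hr, 1339 genes were called, 4855 with samples centred on medians only, 3421 with no array block and 57 to 3464 with an array or sample left out. Genes called between 18/1 2 hr and unstimulated neurons went from 2 to 1600 with quality weights. No paired analysis was possible because the labels do not settle which colour held which replicate of 90/5 2 hr. The scanner's processed signals were not run as an alternative. Signals 2.27 to 6.71 times the background on 2 arrays per condition limit what small differences can be seen.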
